A study of Mus musculus with 6 samples.

Results

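The genes described here are 10 adhesion G protein-coupled receptor genes, followed in early passage M0505 cells and in STOSE cells. They are *Gpr64*, *Gpr126*, *Gpr56*, *Gpr116*, *Gpr124*, *Gpr125*, *Lphn1*, *Lphn2*, *Lphn3* and *Cd97*, which current RefSeq annotation calls *Adgrg2*, *Adgrg6*, *Adgrg1*, *Adgrf5*, *Adgra2*, *Adgra3*, *Adgrl1*, *Adgrl2*, *Adgrl3* and *Adgre5*. The genes were chosen by name, with their log2 values and fold changes in these arrays already known, out of 20405 genes on the array. Where a gene had several probe sets, the one used was selected on its mean over the 6 arrays, the highest being kept. M0505 is a line of mouse ovarian surface epithelial cells from the FVB/N strain, and STOSE is the transformed line that arose from it after long passage. Both lines were grown in the same medium, α-Minimal Essential Medium with fetal calf serum, EGF, ITSS and antibiotics, and neither carries a transgene or received a treatment that the labels name. RNA of 3 M0505 and 3 STOSE samples, labeled as biological replicates, was measured on whole-transcript Affymetrix mouse arrays, and the deposited values are log2 levels from the RMA method (robust multi-array average). Each group is 1 cell line, so the p-values measure the spread between samples of these lines and not between independent transformations.

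Adhesion receptors join a long extracellular region, which binds matrix or a partner cell, to a membrane-spanning region that couples to G proteins. Most of them cut themselves outside the membrane, and the stretch behind the cut acts as a tethered agonist once the outer fragment is removed. Members of the family are known for roles in duct and lung epithelium, in myelination, in vessel growth in the brain and in the adhesion of neurons and leukocytes.

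Array medians over all probe sets ran from 5.64 to 5.68 on the log2 scale, and Pearson's r across genes, which are not independent replicates, was 0.997 to 0.999 between arrays of a line and 0.943 to 0.950 between lines. A background level of 4.72 on the log2 scale was taken from 1134 olfactory receptor probe sets, as their 95th percentile. Of the values of all genes in the 6 arrays, 70.1% lay above this level, so a count above it says little about a cell type. Of 7 surface epithelium markers, 6 lay above it in each line, *Wt1*, *Upk3b*, *Msln*, *Lrrn4* and *Gata4* among them, and *Lhx9* lay below it in both. Of these markers *Gata4* was called, 2.60-fold lower in STOSE cells. Of 6 epithelial markers, 6 lay above it in M0505 cells and 5 in STOSE cells. Of these markers 3 were called lower in STOSE cells, *Krt19* 47.2-fold, *Krt8* 23.5-fold and *Krt7* 2.04-fold. The other 3 were not called, with log2 fold changes of −0.84 for *Krt18*, −0.87 for *Epcam* and 0.03 for *Cdh1*. Of 7 leukocyte markers only *Cd68* was above background, at a mean of 9.78 in M0505 and 6.96 in STOSE cells, and the line means of the other 6 lay between 3.41 and 4.20. Of 6 endothelial markers, 4 were above it in M0505 and 3 in STOSE cells, with *Kdr* at 9.58 and 4.41 and the means of the other 5 between 2.99 and 5.36. Of 6 fibroblast and mural markers 4 and 5 were above it, of 6 granulosa and theca markers 1 and 2, and of 3 Schwann cell markers 3 and 3, with no mean of the Schwann markers over 5.67. The part of these differences in the receptor results was not tested, and in RNA from whole cultures fewer cells of a type and less RNA per cell cannot be told apart.

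Of the 10 receptor genes, 8 matched a RefSeq promoter window of build GRCm38.p6. The 250 bases before a RefSeq start are printed for the 3 genes with the largest falls and for the gene with the largest rise, because these 4 changed most between the lines. Capitals mark GGGCGG (a GC box), TGACTCA (an AP-1 motif) and TATAAA, each searched on both strands, and no match overlapped another.
Gpr64, chrX:160390440-160390689, plus strand: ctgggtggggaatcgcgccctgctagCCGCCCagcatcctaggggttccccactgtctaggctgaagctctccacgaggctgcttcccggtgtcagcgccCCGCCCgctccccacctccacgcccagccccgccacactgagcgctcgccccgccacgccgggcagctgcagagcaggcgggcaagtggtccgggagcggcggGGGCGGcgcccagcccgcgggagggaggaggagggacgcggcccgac
Gpr126, chr10:14545037-14545286, minus strand: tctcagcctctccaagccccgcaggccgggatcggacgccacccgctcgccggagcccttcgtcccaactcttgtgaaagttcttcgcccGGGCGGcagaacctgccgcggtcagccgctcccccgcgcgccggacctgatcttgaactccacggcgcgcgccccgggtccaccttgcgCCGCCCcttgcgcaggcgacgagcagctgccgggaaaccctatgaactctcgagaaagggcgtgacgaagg
Gpr56, first start, chr8:94976859-94977108, plus strand: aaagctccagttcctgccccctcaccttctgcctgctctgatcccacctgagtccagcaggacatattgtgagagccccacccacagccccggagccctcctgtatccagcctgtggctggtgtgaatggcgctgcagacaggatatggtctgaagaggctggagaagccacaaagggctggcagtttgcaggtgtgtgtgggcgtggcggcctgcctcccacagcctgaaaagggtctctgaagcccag
Gpr56, second start, chr8:94984149-94984398, plus strand: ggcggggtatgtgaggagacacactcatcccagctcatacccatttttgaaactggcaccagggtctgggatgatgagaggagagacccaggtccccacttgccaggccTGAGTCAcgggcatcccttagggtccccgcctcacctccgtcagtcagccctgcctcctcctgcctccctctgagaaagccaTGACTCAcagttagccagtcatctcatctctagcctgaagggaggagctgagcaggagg
Lphn2, chr3:148954636-148954885, minus strand: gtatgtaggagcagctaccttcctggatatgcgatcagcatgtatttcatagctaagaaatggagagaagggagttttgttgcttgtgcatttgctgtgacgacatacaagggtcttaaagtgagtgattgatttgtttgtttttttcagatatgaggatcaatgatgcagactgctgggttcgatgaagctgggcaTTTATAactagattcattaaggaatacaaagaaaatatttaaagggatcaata
The *Gpr64* window held 3 GC boxes and the *Gpr126* window held 2. Of 32851 RefSeq promoter windows of this length, 32.7% held at least 1. The windows of *Gpr64* and *Gpr126* were also rich in CG dinucleotides, with 26 and 32, against a median of 6. Some receptor genes whose windows are not printed shared this. The *Gpr125* window had 25 CG dinucleotides and 1 GC box, and the *Lphn1* window had 21 and 2. The windows of *Lphn3*, which was higher in STOSE cells, had 36, 18 and 18 CG dinucleotides and 1, 2 and 1 GC boxes. The first 2 of these windows overlap, so 1 GC box and the CG dinucleotides of the shared stretch are counted in both. The *Gpr116* windows had no GC box and 5 and 7 CG dinucleotides. The *Gpr56* windows had 4 each, and the window at its second start held 2 AP-1 motifs, a motif found in 4.46% of windows. The *Lphn2* window had 3 CG dinucleotides and 1 TATAAA match, which 12.4% of windows held. These matches describe letters only.

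Of the 10 receptor genes, 5 were called lower and 2 were called higher in STOSE cells. A gene was called at a limma adjusted p under 0.05 over all 20405 genes and a fold change of at least 2. Of all genes, 7.59% met this as lower and 4.90% as higher. Every adjusted p given here comes from that limma fit, unless another fit is named beside it. The 10 genes were chosen with results of these data known, and *Gpr64* and *Gpr126* stand among the largest falls that the study lists, so these counts are a description. Among the other 8 genes 3 were lower and 2 were higher. The arrays of the lines did not overlap for 9 of the 10 genes, against 64.6% of all genes, and the median log2 fold change of the 10 was −0.95, against 0.08 over all genes. Centring each array on the median of its 20405 gene values raised every log2 fold change by 0.20 and turned the split of calls over all genes from 1548 lower and 1000 higher to 1177 lower and 1466 higher. None of the 10 receptor genes changed direction with it or after a further quantile normalization, and centring left 4 lower and 2 higher.

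**Figure D1:**
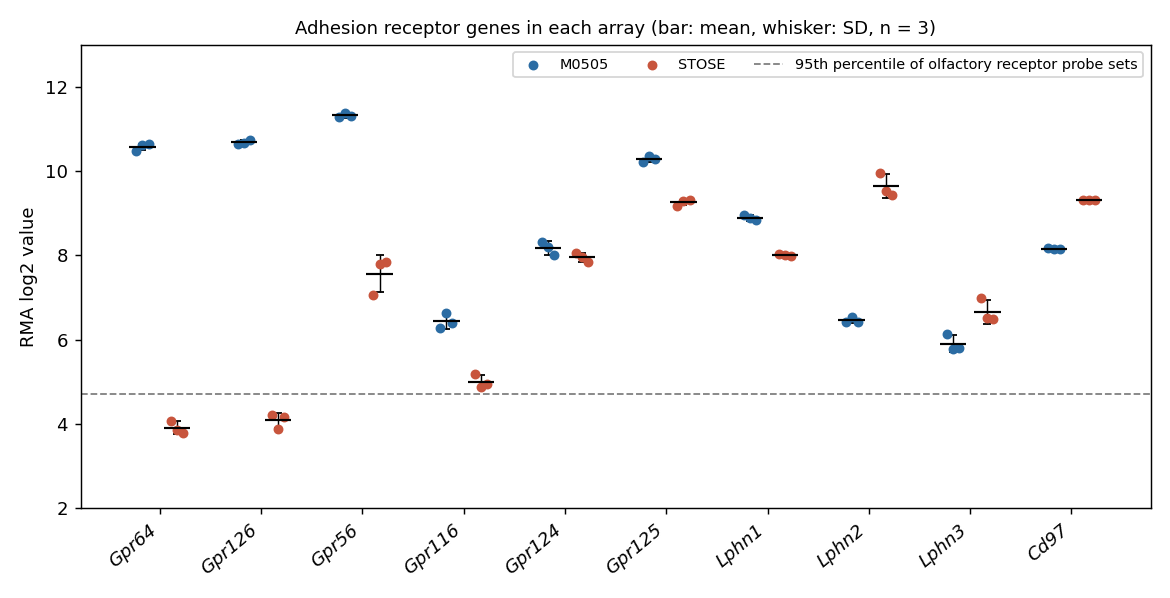
RMA log2 value (y axis) of the 10 adhesion receptor genes (x axis) in 3 M0505 and 3 STOSE arrays, with the mean as a bar and the SD as a whisker, and the background level of 4.72 as a dashed line. *Gpr64* and *Gpr126* lay above 10 in every M0505 array and under the dashed line in every STOSE array, and the arrays of the lines overlapped only for *Gpr124*.

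Of the 10 receptor genes, *Gpr64*, *Gpr126* and *Gpr56* differed most, and all of them belong to subfamily G. This was no trait of the whole subfamily. *Gpr97* had a log2 fold change of −0.87 and was not called, and *Gpr112* and *Gpr128* lay under the background level in both lines. *Gpr64*, a receptor of the ducts that drain the testis, where it takes part in fluid uptake, had log2 values of 10.49, 10.61 and 10.63 in the M0505 arrays and 4.09, 3.87 and 3.79 in the STOSE arrays. *Gpr126*, which Schwann cells need to begin myelination, had 10.64, 10.67 and 10.73 in M0505 and 4.21, 3.88 and 4.17 in STOSE cells. Every STOSE value of both genes lay under the background level, so the measured linear fold changes of −101 and −96.6 rest on a STOSE level that cannot be told from background. Against the background level itself, *Gpr64* was at least 57.9-fold and *Gpr126* at least 62.3-fold lower, and with the background level set at the 99th percentile instead these bounds were 35.4-fold and 38.0-fold. The log2 fold change of *Gpr64* was −6.66, with a standard error (SE) of 0.09, and that of *Gpr126* was −6.59 (SE 0.09). The study names both genes for the size of these falls, so no p is given for them.

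Over the 6 arrays, the gene most like *Gpr64* was *Gpr126*, with a root mean square difference of 0.12 between their log2 values after each gene was centred on its mean. The genes next in likeness to *Gpr64* were *4921521F21Rik* (0.21), *Igfbp5* (0.22), *Cybrd1* (0.24) and *Thbd* (0.25). For *Gpr126* they were *Thbd* (0.18), *Igfbp5* (0.20), *4921521F21Rik* (0.20) and *Uchl1* (0.23), after *Gpr64* itself. The STOSE means of *Gpr64*, *Gpr126* and *4921521F21Rik*, at 3.91, 4.09 and 3.37, lay under the background level, so the order of likeness rests in part on values that cannot be told from background. Both receptor genes were also picked for the size of their fall, and with 2 lines this likeness is mostly the size of 1 difference. The named genes lie on chromosomes 1, 2, 5, 10 and X.

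*Gpr56*, a collagen III receptor known from the developing cortex and coupled to RhoA, fell by a smaller amount and stayed above background. Its log2 values were 11.27, 11.39 and 11.31 in M0505 cells and 7.06, 7.79 and 7.85 in STOSE cells. The arrays of the lines lay far apart, and STOSE replicate 1 lay 0.75 under the mean of the other STOSE arrays. The log2 fold change was −3.76 (SE 0.19, adjusted p = 8.51e-07), which is 13.5-fold, and it was 11.4-fold without STOSE replicate 1. On chromosome 8, *Gpr56* lies next to another adhesion receptor gene, *Gpr97*, which was lower by 0.87 on the log2 scale (SE 0.09) and so under 2-fold.

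*Gpr116*, which keeps surfactant in balance in the lung, was the 1 receptor of subfamily F among the 10. Its log2 values were 6.28, 6.63 and 6.40 in M0505 cells and 5.18, 4.89 and 4.94 in STOSE cells, the latter close above the background level. It fell 2.71-fold (−1.44 on the log2 scale, SE 0.11, adjusted p = 9.44e-06). Leaving out any 1 array gave between 2.53-fold and 2.88-fold.

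Of the 2 receptors of subfamily A, 1 was called and 1 was not. *Gpr125*, known as a surface marker of spermatogonial progenitors, had log2 values of 10.21, 10.37 and 10.29 in M0505 cells and 9.18, 9.28 and 9.31 in STOSE cells. The groups did not overlap, and its log2 fold change of −1.03 (SE 0.07, adjusted p = 3.76e-06) is 2.04-fold. That call lay at the threshold, and it was lost without M0505 replicate 2 (1.99-fold), without STOSE replicate 1 (−0.99 on the log2 scale) and with arrays centred on their median (−0.83). *Gpr124*, which brain vessels need to grow into the neural tube, had 8.33, 8.20 and 8.01 in M0505 and 8.07, 7.96 and 7.84 in STOSE cells. These groups overlapped. Its log2 fold change of −0.23 had a 95% interval of −0.44 to −0.01 and did not pass the test (adjusted p = 0.0729). With a replicate block in the fit the adjusted p was 0.0143, and the change stayed under 2-fold.

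The 3 latrophilins, receptors for teneurins and FLRT proteins and the targets of a black widow spider toxin, did not move in 1 direction. *Lphn2* had log2 values of 6.42, 6.55 and 6.42 in M0505 cells and 9.96, 9.52 and 9.45 in STOSE cells. It rose 9.05-fold (log2 fold change 3.18, SE 0.13, adjusted p = 2.98e-07), the place 61 from the top of all genes. *Lphn1* had 8.96, 8.88 and 8.83 in M0505 and 8.03, 8.02 and 7.996 in STOSE cells. It was lower by 1.84-fold (log2 fold change −0.88, SE 0.06, adjusted p = 4.53e-06), which passed the adjusted p and not the fold threshold. *Lphn3* had 6.14, 5.79 and 5.81 in M0505 and 6.99, 6.52 and 6.49 in STOSE cells. It was higher by 1.69-fold (log2 fold change 0.76, SE 0.15, adjusted p = 0.00267) and likewise under the fold threshold. For the probe set kept for each gene, the 95% interval of the log2 fold change was 2.88 to 3.47 for *Lphn2*. It was 0.41 to 1.10 for *Lphn3* and −1.01 to −0.74 for *Lphn1*, and no pair of these overlapped. Other probe sets gave other intervals in a fit to each probe set. A dim *Lphn2* probe set, under the background level in both lines, had 0.21 to 0.75, which overlaps that of *Lphn3*. The second *Lphn1* probe set had −0.57 to −0.24. STOSE replicate 1 was the highest STOSE array for *Lphn2* by 0.48 and for *Lphn3* by 0.49 over the mean of the other STOSE arrays. Without it *Lphn2* was 8.11-fold and *Lphn3* 1.51-fold higher.

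*Lphn2* is read by 8 probe sets, and its mean was higher in STOSE cells in all 8. Of these, 7 were called in a fit to each of the 23530 probe sets with a symbol. The 6 brightest had log2 fold changes of 3.18, 3.19, 2.59, 2.32, 2.84 and 3.30 in order of their mean level. In the fifth and the sixth, the M0505 means lay under the background level and STOSE means above it. The 2 dimmest had line means under the background level in both lines and gave 0.48 and 1.36. The dimmest, at 1.36, is among the 7 called, and its STOSE replicate 1 lay 1.41 over the mean of the other STOSE arrays. The mean over the 8 probe sets gave 2.41. STOSE replicate 1 was the highest STOSE array in all 8. *Lphn1* has 2 probe sets, with log2 fold changes of −0.88 and −0.40, and each of the other 8 genes has 1.

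**Figure D2:**
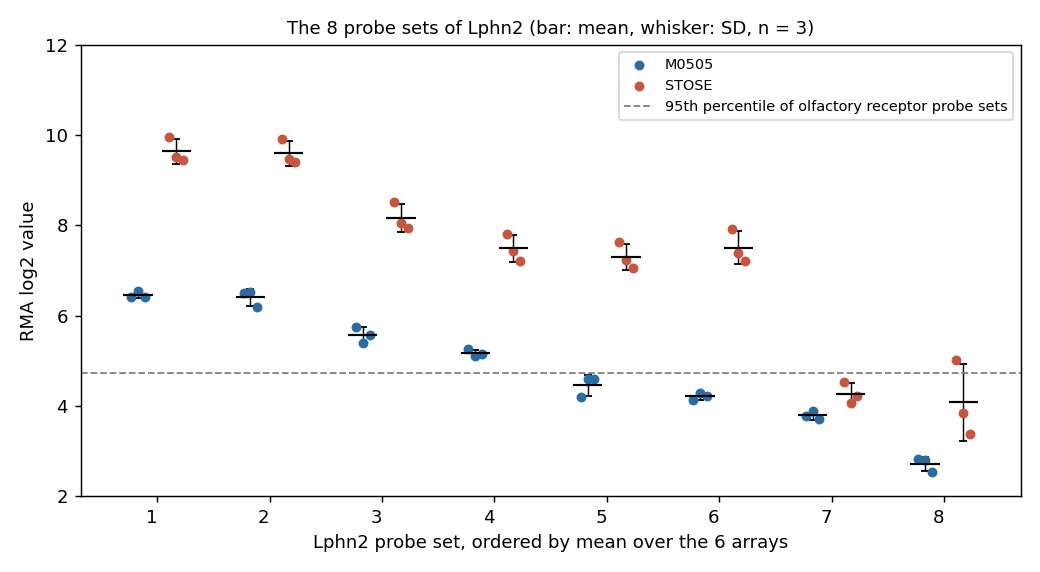
RMA log2 value (y axis) of the 8 probe sets of *Lphn2*, ordered by their mean over the 6 arrays (x axis), in 3 M0505 and 3 STOSE arrays, with the mean as a bar, the SD as a whisker and the background level of 4.72 as a dashed line. The 6 brightest probe sets put every STOSE array above every M0505 array and above the dashed line, and the 2 dimmest lie mostly under it.

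*Cd97*, a receptor of leukocytes that binds Cd55, Thy1 and integrins, had the smallest SE of the 10. Its log2 values were 8.18, 8.15 and 8.15 in M0505 cells and 9.31, 9.32 and 9.33 in STOSE cells. It rose 2.23-fold (log2 fold change 1.16, SE 0.05, adjusted p = 5.52e-07), and leaving out any 1 array gave between 2.22-fold and 2.24-fold. *Cd97* and *Lphn1* are neighbours on chromosome 8 with no other gene of the array between them, and 1 was higher and the other lower in STOSE cells.

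The rest of the family was written out from its subfamilies, and 20 of 21 further genes were on the array. Of these, 3 were lower, 0 were higher and 17 were not called, where 7.59% of all genes were called lower and 4.90% higher. The median log2 fold change of the 20 was 0.05. At the limma adjusted p alone, 7 passed as lower and 2 as higher, against 24.8% and 31.6% of all genes. At an unadjusted p under 0.05, 7 were lower and 3 higher, against 26.1% and 35.1% of all genes. Both lines lay under the background level for 10 of the 20. *Gpr115*, of subfamily F, had log2 values of 10.17, 10.05 and 10.13 in M0505 and 6.31, 6.85 and 6.62 in STOSE cells, a fall of 11.5-fold (log2 fold change −3.53, SE 0.12, adjusted p = 1.42e-07). *Celsr1*, a cadherin-like receptor of planar cell polarity, had 8.79, 8.66 and 8.59 in M0505 and 5.74, 5.74 and 5.73 in STOSE cells, a fall of 7.69-fold (−2.94, SE 0.07, adjusted p = 1.20e-08). *Gpr110*, which lies beside *Gpr116* on chromosome 17, fell 2.16-fold (SE 0.16 on the log2 scale, adjusted p = 0.000472), but its log2 fold change came to −0.97, under 2-fold, without STOSE replicate 3 and after quantile normalization, and to −0.91 after centring. With the 10 genes described first, 8 of 30 adhesion receptor genes were lower and 2 were higher, against 7.59% and 4.90% of all genes. Those 10 were chosen with their fold changes known, so this count is a description.

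**Figure D3:**
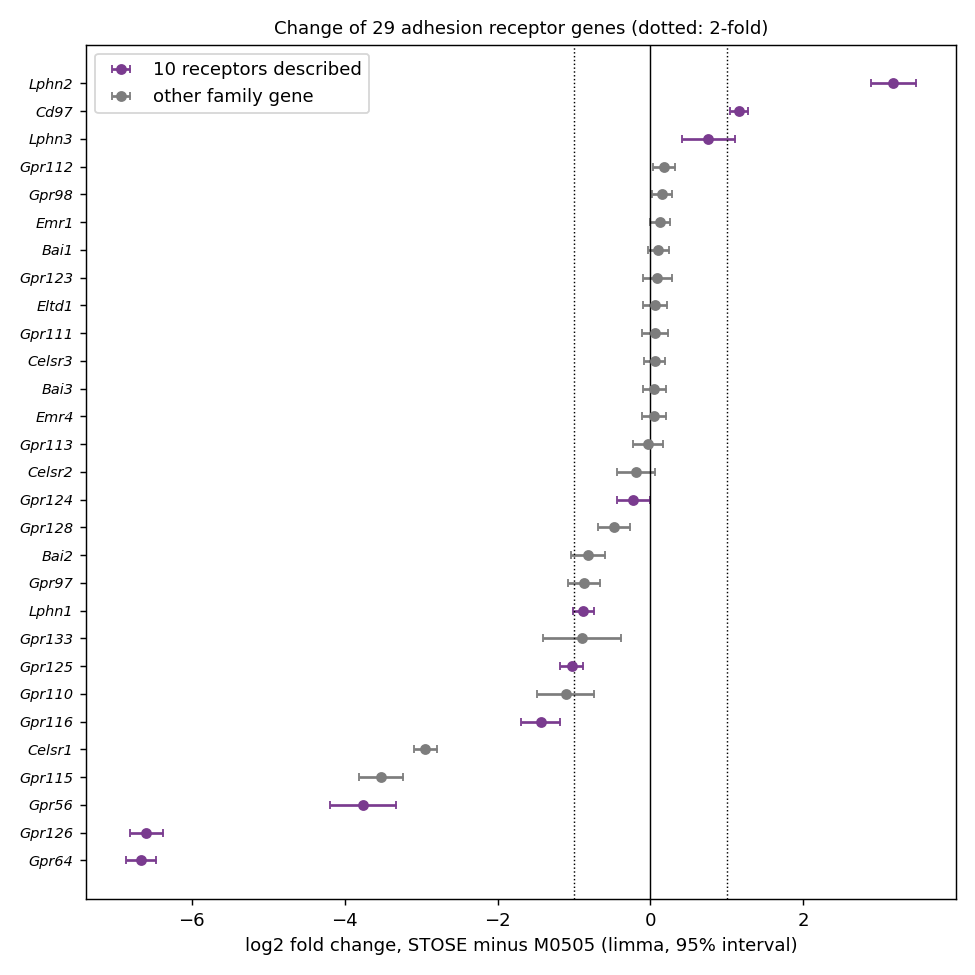
log2 fold change, STOSE minus M0505, with its 95% interval from limma (x axis), of 29 adhesion receptor genes in order of change (y axis), the 10 described in purple and 19 others in grey, with dotted lines at 2-fold. *Lphn2* stands alone on the right at 3.18, and *Gpr56*, *Gpr115* and *Celsr1* lie between −3.76 and −2.94, with *Gpr126* and *Gpr64* at −6.59 and −6.66.

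Among 36 genes for ligands and binding partners of these receptors, 6 were lower and 5 were higher, with a median log2 fold change of 0.07, where 7.59% and 4.90% of all genes were. The FLRT ligands of the latrophilins moved apart. *Flrt1* fell 14.0-fold, from 10.06, 10.04 and 10.17 in M0505 to 6.35, 6.22 and 6.29 in STOSE cells (log2 fold change −3.80, SE 0.07, adjusted p = 4.98e-09). *Flrt2* rose 2.16-fold, from 9.11, 9.36 and 9.33 to 10.43, 10.31 and 10.40 (adjusted p = 7.15e-06). *Flrt3* rose from 4.32, 4.07 and 4.50, all under the background level, to 5.85, 6.05 and 5.59, at least 2.16-fold (adjusted p = 2.54e-05), or at least 1.32-fold with the background level at the 99th percentile. Of the teneurin ligands, *Odz4* was 2.40-fold lower (adjusted p = 0.000467) and *Odz3* was 2.00-fold higher (adjusted p = 7.33e-05). The *Odz3* call was lost without STOSE replicate 1, at 0.89 on the log2 scale, and without M0505 replicate 3, at 0.95. *Odz1*, under the background level in both lines, and *Odz2* had 95% intervals of −0.03 to 0.30 and −0.08 to 0.21 for the log2 fold change. *Unc5b*, a netrin receptor that binds FLRT proteins, was 2.11-fold lower (adjusted p = 1.47e-06).

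The partners of *Cd97* also differed in direction. *Cd55*, which shields cells from complement and binds Cd97, had log2 values of 10.24, 10.35 and 10.35 in M0505 and 6.88, 7.73 and 7.72 in STOSE cells. It fell 7.32-fold (log2 fold change −2.87, SE 0.21, adjusted p = 6.64e-06), and 6.03-fold without STOSE replicate 1, which lay 0.84 under the mean of the other STOSE arrays. *Thy1*, a small surface glycoprotein, rose 2.81-fold (adjusted p = 2.41e-06). *Itgb3*, an integrin chain that pairs with the product of *Itgav*, had 4.84, 5.16 and 5.10 in M0505 and 8.07, 8.15 and 8.06 in STOSE cells, a rise of 8.34-fold (3.06, SE 0.09, adjusted p = 5.03e-08). The other integrin chains measured were not called, with log2 fold changes of −0.29 for *Itgav*, −0.18 for *Itga5* and −0.18 for *Itgb1*.

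**Figure D4:**
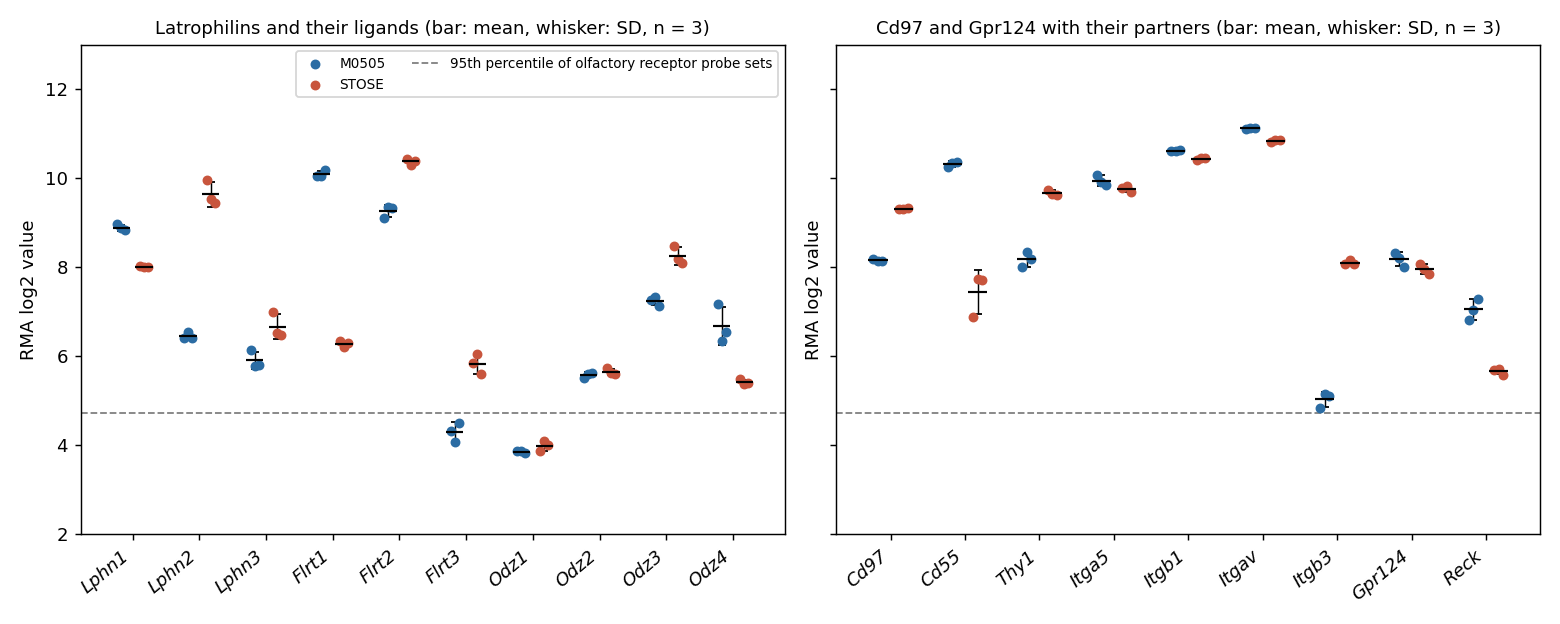
RMA log2 value (y axis) of the latrophilin genes with FLRT and teneurin (*Odz*) ligand genes (left) and of *Cd97* and *Gpr124* with partner genes (right), in 3 M0505 and 3 STOSE arrays, with the mean as a bar, the SD as a whisker and the background level of 4.72 as a dashed line. Every STOSE array lies above every M0505 array for *Lphn2*, *Lphn3*, *Flrt2*, *Flrt3*, *Odz3*, *Cd97*, *Thy1* and *Itgb3*. Every STOSE array lies under every M0505 array for *Lphn1*, *Flrt1*, *Odz4*, *Cd55*, *Itga5*, *Itgb1*, *Itgav* and *Reck*. The arrays of the lines did not overlap for 64.6% of all genes.

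For the other receptors, most partner genes moved by less than 2-fold. *Reck*, which works with *Gpr124* in Wnt7 signaling and also restrains metalloproteinases, fell 2.62-fold, from 6.82, 7.05 and 7.30 to 5.68, 5.73 and 5.59 (adjusted p = 1.44e-05). Of the Wnt7 ligands, *Wnt7a* lay under the background level in both lines, and *Wnt7b* lay above it in both, with a log2 fold change of 0.11 (95% interval −0.14 to 0.36). *Col3a1*, which encodes the collagen bound by Gpr56, had a log2 fold change of −0.10 with a 95% interval of −0.27 to 0.07, and *Tgm2*, another Gpr56 partner, had 0.15 with −0.12 to 0.41. Of the collagen IV chains, which bind Gpr126, *Col4a2* was 2.15-fold lower (adjusted p = 9.81e-06) and *Col4a1* was lower by 0.95 on the log2 scale, under 2-fold. With arrays centred on their median *Col4a2* and *Unc5b* came to −0.90 and −0.88, also under 2-fold. *Prnp*, whose product activates Gpr126, was lower by 0.30, and *Lama2* and *Sftpd*, the latter a Gpr116 ligand of lung surfactant, lay under the background level in both lines.

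Of 34 genes of G protein signaling, 3 were lower and 2 were higher, with a median log2 fold change of 0.10. These counts are near the shares over all genes, 7.59% and 4.90%, so they are no result about the list. *Adcy5*, a cyclase that makes cAMP, fell 3.81-fold (log2 fold change −1.93, SE 0.18, adjusted p = 3.35e-05), from 6.70, 7.27 and 7.03 to 4.70, 5.24 and 5.27. *Adcy7*, another cyclase, rose 2.34-fold (adjusted p = 1.58e-06) and *Grk5*, a kinase that turns receptors off, rose 3.08-fold (adjusted p = 2.10e-06). The cyclase gene *Adcy9* (2.03-fold lower) and the G protein subunit gene *Gnaz* (2.01-fold lower) lay at the threshold, and both were under 2-fold after either further scaling, at −0.86 and −0.87 after quantile normalization and −0.82 and −0.81 after centring. *Adcy9* also lost its call without STOSE replicate 3, at −0.93, and *Gnaz* without M0505 replicate 2, at −0.86, M0505 replicate 3, at −0.97, or STOSE replicate 2, at −0.96. *Gna12* and *Gna13*, the subunits between Gpr56 and RhoA, had log2 fold changes of 0.01 and 0.39, and *Rhoa* had 0.09, none of them called.

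The receptor genes lie on chromosomes 3, 5, 8, 10, 17 and X, with 4 of them on chromosome 8, by the gene order of GRCm38.p6. The median log2 fold change of the 962 chromosome 8 genes was 0.12, and that of chromosome 3 was 0.18 and of chromosome 5 was 0.002. Among these chromosomes, the paper's karyotypes report loss of 3 and 8 in both lines and of 5 in STOSE cells. The part of chromosome copy number in the receptor results was not tested. Around *Gpr126*, the 10 nearest genes of the array had a median log2 fold change of −0.35 and a lowest value of −1.93. Around *Gpr56* the median was 0.23 and the lowest −1.21. The 10 genes around *Gpr64* had a median of 0.11 and ranged from −3.64 for *Mtap7d2* to 4.15 for *Ppef1*. Of these, 1 was called lower and 3 were called higher, where 7.59% and 4.90% of all genes were. The counts were 2 and 0 around *Gpr126*, 1 and 1 around *Gpr56*, and 0 and 1 around *Lphn2*. Around *Lphn2* the median was 0.10 and the highest value was 1.17 for its neighbour *Ttll7*, and *Eltd1*, the adhesion receptor gene on the other side, had 0.06. Of the 10 neighbours of each of these 4 receptor genes, none changed as much as the receptor gene itself. These 4 are the receptor genes with the largest changes, so smaller changes beside them were likely beforehand. Around *Gpr116*, *Gpr124*, *Gpr125*, *Lphn1*, *Lphn3* and *Cd97*, at least 1 neighbour changed more than the receptor gene. Examples are *Gpr115* at −3.53 near *Gpr116* and *Ddx39* at 2.06 beside *Cd97*. The 5 genes on 1 side of *Gpr116* include the family members *Gpr110*, *Gpr111* and *Gpr115*, of which *Gpr111* lay under the background level in both lines and the other 2 fell.

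**Figure D5:**
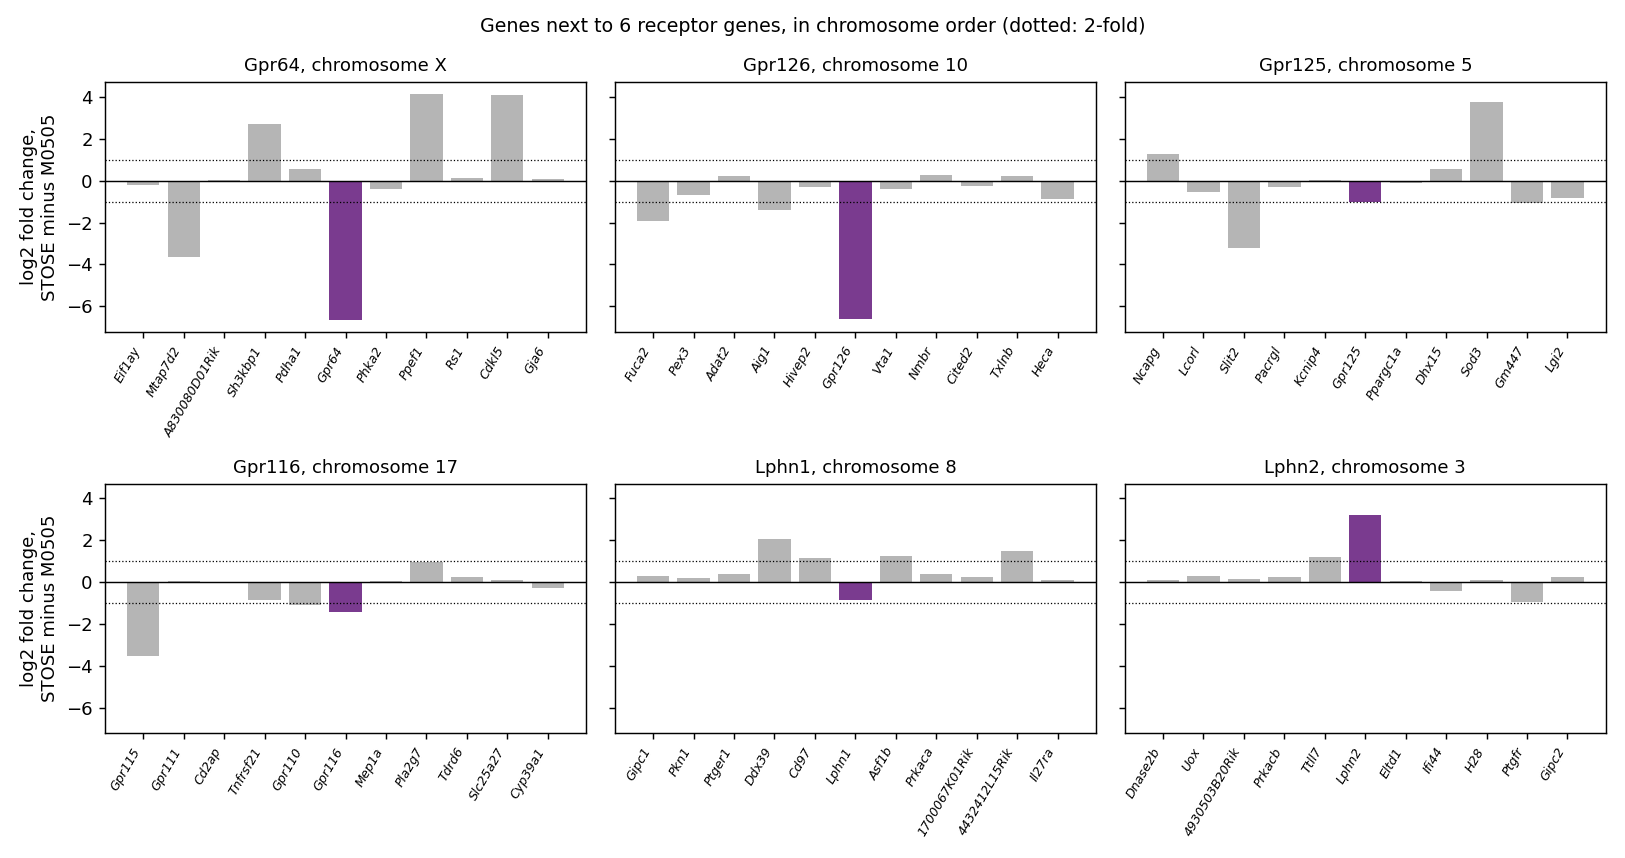
log2 fold change, STOSE minus M0505 (y axis), of 6 receptor genes (purple) and the 5 genes of the array on each side of them in chromosome order (x axis, gene symbols), with dotted lines at 2-fold. *Gpr64*, *Gpr126* and *Lphn2* change more than any of their 10 neighbours, *Gpr125* changes less than *Slit2* (−3.22) and *Sod3* (3.74) near it, and *Cd97* stands beside *Lphn1* with the opposite sign.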

How the data were processed

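Total RNA of 3 M0505 and 3 STOSE samples was measured on Affymetrix whole-transcript mouse gene arrays. Per the labels and methods, the authors used Affymetrix Expression Console and RMA, and deposited 1 table of log2 values. RMA corrects background, normalizes quantiles over the arrays and gives 1 value a probe set. The table also holds the mean of each line, which equalled the recomputed mean to within 3.33e-09, and the authors' fold changes, which were not used. The RMA version, annotation release and genome build are not given in the sources used here. Probe signals were not analysed here, and RMA compresses differences near background. An array has no read depth, and the number of arrays limits the precision.

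Of 28944 probe sets, 23530 carried a symbol, and the one of highest mean stood for each of 20405 genes. STOSE and M0505 arrays were compared in limma (version 3.58.1, run under R 4.3.3) by moderated tests of lmFit and eBayes, without covariates, p-values were Benjamini-Hochberg adjusted over all genes, and the code was tested on simulated data. An exact two-sided permutation test of 3 against 3 arrays has 0.1 as its smallest p. Gene order and promoters came from RefSeq, with 97.5% of genes placed. The family counts include 1 gene that is not reported here.

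The receptor genes and the lists of family, partner, signaling and marker genes were chosen with earlier results of these data known. Named are the 10 receptor genes, at most 8 called genes of each other list, the direct binding partners, and the 5 genes most like *Gpr64* and *Gpr126*. Alternatives were further quantile normalization, median centring, leaving out the dimmest 25% of genes, other uses of probe sets, limma with trend and robust estimation, the methods' t-test, other fold thresholds, a replicate block and leaving out each array. The background level was also set at the 90th and 99th percentiles.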

Additional observations from a re-analysis of the deposited data

How the results depend on the processing

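The fold threshold moved the counts most. At the adjusted p alone, all genes gave 5066 lower and 6454 higher, the 10 receptor genes 6 and 3, other family genes 7 and 2, partner genes 14 and 10, and signaling genes 10 and 12. At 4-fold they gave 509 and 186 over all genes, 3 and 1 for the 10 receptor genes, 2 and 1 for partner genes, and 0 and 0 for signaling genes. At an unadjusted limma p under 0.05 with no fold threshold, 10 of 34 signaling genes were lower and 14 higher, against 26.1% and 35.1% of all genes. The methods' t-test with the 2-fold threshold gave 1546 lower and 996 higher over all genes at an unadjusted p under 0.05, 1543 and 988 after Benjamini-Hochberg adjustment, and 5 and 2 for the receptor genes in both. Signaling genes called lower came to 1 after quantile normalization and 1 after centring. With each array left out in turn, the receptor genes gave 4 to 5 lower and 2 higher. Of 29 genes followed, 0 reversed under any alternative, and 7 lost their call under a setting other than a fold threshold, namely *Gpr125*, *Gpr110*, *Odz3*, *Unc5b*, *Col4a2*, *Gnaz* and *Adcy9*. Of the values of these 29 genes under single alternatives, 456 kept direction and call, 35 lost the call and 2 gained it. The replicate numbers shared by the lines were not shown to pair the samples, and a pairing was not excluded. The deviations of same-numbered arrays correlated at 0.26, 0.04 and 0.25, and those of different-numbered arrays at −0.29 to 0.12. For replicates 1 and 3 the same-numbered value was the highest, and STOSE replicate 2 correlated better with M0505 replicate 3, at 0.12. With a replicate block the counts were 1548 lower and 1001 higher over all genes and 5 and 2 for the receptor genes, and no call of the 29 genes changed. Above the background level lay 10 receptor genes in M0505 and 8 in STOSE cells, where 70.1% of the values of all genes lay above it. The counts were 10 and 8 at the 90th percentile and 10 and 7 at the 99th, where *Gpr116* fell under it in STOSE cells. At those percentiles the bound for *Gpr64* was 74.2-fold and 35.4-fold, that for *Gpr126* 79.8-fold and 38.0-fold, and that for *Flrt3* 2.77-fold and 1.32-fold.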
